A study of Macaca mulatta with 10 samples.

Results

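CDKN1A, GADD45B, DDIT3 and JUNB are 4 genes that cells switch on when they stop dividing or meet stress, and they were followed here through the differentiation of rhesus macaque embryonic stem (ES) cells. The members were all probe sets annotated to these 4 symbols, which gave 6 probe sets, 3 of them for GADD45B and 1 for each of the other genes, out of 44210 probe sets and 13191 genes tested. The NCBI gene numbers are 719199 for CDKN1A, 711257 for GADD45B, 714901 for DDIT3 and 717837 for JUNB. None of the 6 probe sets was annotated to a further gene.

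RNA came from ORMES6, a rhesus ES cell line, in 5 groups of 2 Affymetrix arrays. The ES group was undifferentiated cells kept on mouse embryonic fibroblast feeders with basic FGF. The other groups came from co-culture with hESdF, fibroblast-like cells derived from human ES cells, meant to induce liver-like foci. IVDS2 was cells at in vitro differentiation stage 2, IVDS2-C the central foci of colonies at that stage, IVDS2-P the peripheral area of such colonies, and IVDS3 cells at stage 3. All groups are of a single cell line, and nothing given says whether repeats were separate cultures, so p-values measure only the spread between these samples, which may be technical. Feeder or hESdF transcripts that match macaque probes could add signal, and their part in any result was not tested.

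CDKN1A encodes p21, an inhibitor of cyclin-dependent kinases that halts the cell cycle and is a classical target of p53. GADD45B belongs to a family of small proteins that bind stress-activated MAP kinase kinases and cell cycle regulators, and it is induced by TGF-beta and NF-kappaB signals. DDIT3 encodes CHOP, a transcription factor of the integrated stress response that acts downstream of ATF4 and of stress in the endoplasmic reticulum (ER). JUNB is a subunit of the AP-1 transcription factor and an immediate early gene, one whose transcripts rise within minutes of a stimulus and decay soon after.

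Values are on the log2 scale, with each probe set centred on its median over the 10 arrays. A value of 0 is therefore the middle of the arrays and not absence, and levels cannot be compared between genes. Each gene's value is the mean of its probe sets. Differences are log2 fold changes ± standard error (SE, n = 2 arrays per group) from a linear model over all 10 arrays. A gene was called at a limma adjusted p under 0.05 (Benjamini-Hochberg over the 13191 genes of a comparison). In such bulk samples, a change in the share of cells that express a gene and a change in RNA per cell cannot be told apart.

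CDKN1A rose in the colony centre and rose further at stage 3. Its values were -0.75 and -0.41 on the ES arrays, -0.20 and -0.23 on the IVDS2 arrays, and 0.20 and -0.25 on the IVDS2-P arrays. They were 1.38 and 1.82 on the IVDS2-C arrays and 3.61 and 3.29 on the IVDS3 arrays. The IVDS3 arrays were above all others, the IVDS2-C arrays came next, and the IVDS2 and IVDS2-P arrays overlapped. Stage 3 exceeded ES cells by 4.03 ± 0.21, a 16.4-fold difference (adjusted p = 1.9e-06). The centre exceeded ES cells by 2.18 ± 0.21, or 4.53-fold (adjusted p = 0.000194), and the periphery by 0.56 ± 0.21, which was not called (adjusted p = 0.118, 95% interval 0.09 to 1.03).

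The order of the groups for CDKN1A was ES, IVDS2, IVDS2-P, IVDS2-C and IVDS3. The neighbours ES and IVDS2 differed by 0.36 ± 0.21 (95% interval -0.11 to 0.83), and IVDS2 and IVDS2-P by 0.20 ± 0.21 (95% interval -0.27 to 0.67), and neither pair was called. The centre exceeded the periphery by 1.62 ± 0.21 (3.08-fold, adjusted p = 0.00252). Stage 3 in turn exceeded the centre by 1.85 ± 0.21 (3.61-fold, adjusted p = 0.00034) and IVDS2 by 3.67 ± 0.21 (12.7-fold, adjusted p = 4.53e-06). Leaving out any 1 array ended none of these calls, and the difference was 3.86 to 4.20 (log2) for stage 3 against ES cells. With a single array left in a group, that array was assumed to vary like the other groups.

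GADD45B was highest in the colony centre and lowest at the periphery. The mean of its 3 probe sets was 1.22 and 2.33 on the IVDS2-C arrays, against -1.80 and -1.35 on the IVDS2-P arrays. It was -0.88 and -1.27 on the IVDS2 arrays, 1.29 and 1.16 on the IVDS3 arrays, and -0.73 and 0.73 on the ES arrays. The ES pair held the middle 2 of the 10 values, so its mean of 0 follows from the centring. All 4 arrays of the centre and of stage 3 lay above all 4 arrays of the periphery and of IVDS2. The centre exceeded the periphery by 3.35 ± 0.47, or 10.2-fold (adjusted p = 0.00356), and this gene ranked 24 among the 13191 genes by that difference. Leaving out any 1 array kept the call (differences 2.79 to 3.91).

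Against ES cells the GADD45B values depended on which ES array was used. The centre exceeded ES cells by 1.77 ± 0.47 (adjusted p = 0.0201), but it was no longer called without ES replicate 1 (1.05, adjusted p = 0.089) or IVDS2-C replicate 2 (1.22, adjusted p = 0.14), and with only the arrays of the 2 groups in the fit (adjusted p = 0.08085). Stage 3 against ES cells was 1.23 ± 0.47 and not called (adjusted p = 0.054). It was called without ES replicate 2 (1.96, adjusted p = 0.00674), without either IVDS2-C array (adjusted p = 0.0332), or with arrays centred on their medians (1.29, adjusted p = 0.0459). The periphery had -1.57 ± 0.47 (adjusted p = 0.0633) and IVDS2 had -1.07 ± 0.47 (adjusted p = 0.178). Without ES replicate 1, the first was -2.30 (adjusted p = 0.0112) and the second -1.80 (adjusted p = 0.027), both called. The first was also called without either IVDS2-C array (adjusted p = 0.0431).

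Within the differentiated groups, GADD45B rose from IVDS2 to stage 3 by 2.30 ± 0.47 (4.93-fold, adjusted p = 0.00411), also with any 1 array left out. No pair of neighbours in its order (IVDS2-P, IVDS2, ES, IVDS3, IVDS2-C) was called. Stage 3 and the centre, which overlapped, differed by -0.54 ± 0.47 (95% interval -1.60 to 0.51), and the periphery and IVDS2 by -0.50 ± 0.47 (95% interval -1.56 to 0.55). The 3 probe sets ran closely together over the 10 arrays, with Pearson r of 0.98 to 0.99 between them and a largest difference on any array of 0.83. Their centre against periphery differences were 2.97 ± 0.42, 3.32 ± 0.48 and 3.75 ± 0.50, and all 3 were called over the 44210 probe sets, of which 3.85% were called higher. They may share target sequence, and they were taken as 1 measurement.

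DDIT3 also peaked in the colony centre. Its values were 1.29 and 2.14 on the IVDS2-C arrays, 0.75 and 0.63 on the IVDS3 arrays, and -0.05 and 0.05 on the IVDS2 arrays. They were -1.30 and -0.39 at the periphery and -1.54 and -0.30 in ES cells, and these 2 groups overlapped. Both centre arrays were above the other 8 arrays. The centre exceeded ES cells by 2.64 ± 0.43, or 6.22-fold (adjusted p = 0.00218), which stayed called with any 1 array left out (differences 2.02 to 3.25). It exceeded the periphery by 2.56 ± 0.43 (5.91-fold, adjusted p = 0.00785), and here the call was lost without IVDS2-C replicate 2 (2.14, adjusted p = 0.0587) or IVDS2-P replicate 1 (2.11, adjusted p = 0.0655).

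DDIT3 was 3.05-fold higher at stage 3 than in ES cells (1.61 ± 0.43, adjusted p = 0.0121). It was not called without ES replicate 1 (0.99, adjusted p = 0.0767) or IVDS3 replicate 1 (1.55, adjusted p = 0.0621). No pair of neighbours in its order (ES, IVDS2-P, IVDS2, IVDS3, IVDS2-C) was called in the model of all groups with no further term. The periphery and ES cells differed by 0.07 ± 0.43 (95% interval -0.89 to 1.04). IVDS2 and the periphery, which did not overlap, differed by 0.85 in size (adjusted p = 0.431). Stage 3 and IVDS2 differed by 0.69 ± 0.43 (adjusted p = 0.238), which was called with only those 4 arrays in the fit (adjusted p = 0.00433). Stage 3 was below the centre by 1.03 in size, with a 95% interval of the difference of -1.99 to -0.06 (adjusted p = 0.127).

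JUNB was highest at stage 3, and its arrays spread most within groups. Its values were 1.42 and 1.26 on the IVDS3 arrays and 0.23 and 1.38 on the IVDS2-C arrays. They were -1.64 and -0.23 at the periphery, -0.86 and -2.10 on the IVDS2 arrays, and -2.46 and 0.32 in ES cells. The stage 3 arrays overlapped those of the centre, and the ES arrays spanned the whole range of IVDS2 and of the periphery. Stage 3 exceeded ES cells by 2.41 ± 0.84, or 5.31-fold (adjusted p = 0.0403). It was not called without ES replicate 1 (1.02, adjusted p = 0.254), IVDS3 replicate 1 (2.33, adjusted p = 0.136) or IVDS3 replicate 2 (2.49, adjusted p = 0.115), and the difference was 3.80 without ES replicate 2 (adjusted p = 0.00377).

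From IVDS2 to stage 3, JUNB rose by 2.82 ± 0.84 (7.06-fold, adjusted p = 0.0261). This call was lost without IVDS2 replicate 2 (2.20, adjusted p = 0.155), IVDS3 replicate 1 (2.74, adjusted p = 0.109) or IVDS3 replicate 2 (2.90, adjusted p = 0.0882). The centre had 1.74 ± 0.84 against the periphery (adjusted p = 0.234) and 1.87 ± 0.84 against ES cells (adjusted p = 0.125), neither called, although both centre arrays were above both peripheral arrays. Against ES cells it was called without ES replicate 2 (3.26, adjusted p = 0.0155). No pair of neighbours in its order (IVDS2, ES, IVDS2-P, IVDS2-C, IVDS3) was called, and the SE of 0.84 leaves wide intervals, such as -1.38 to 2.44 for stage 3 against the centre.

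**Figure D1:**
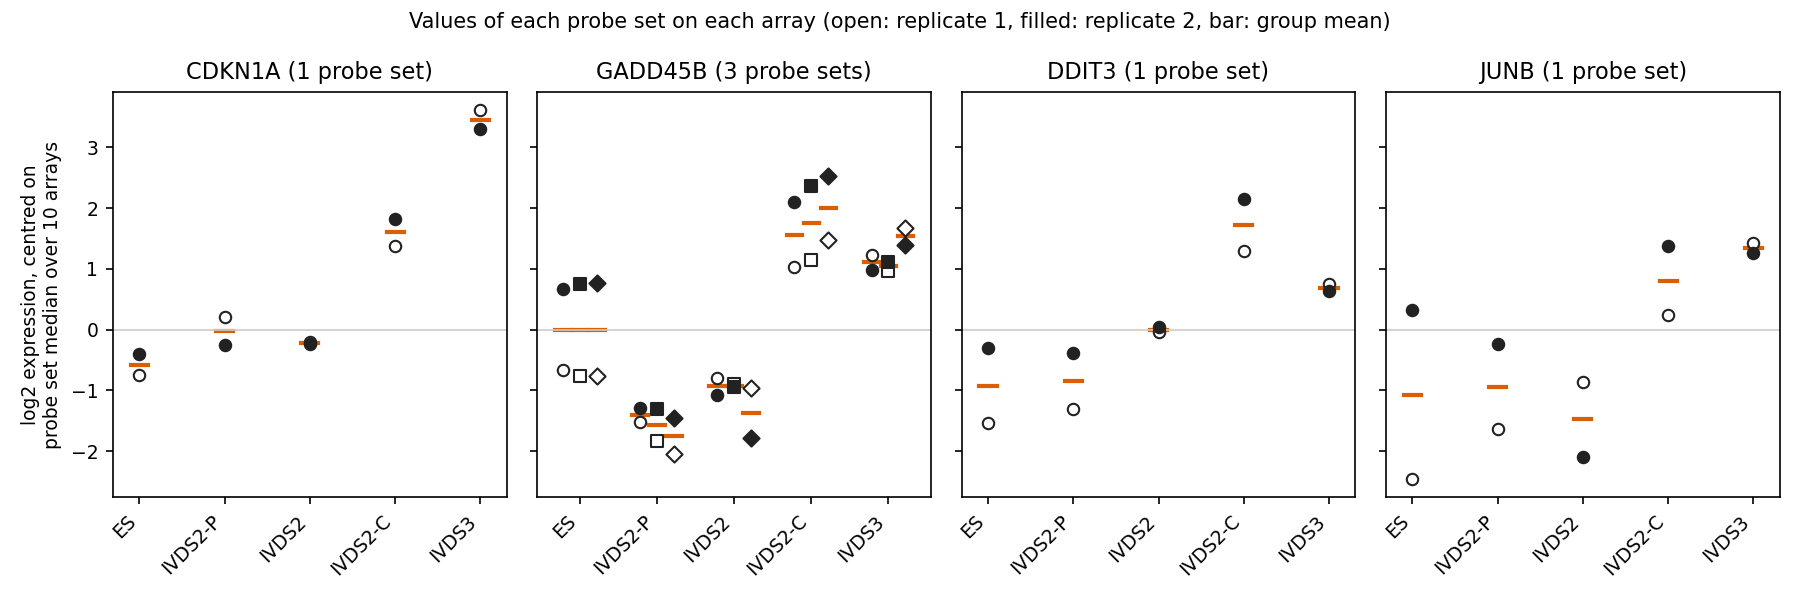
Log2 expression of each of the 6 probe sets on each of the 10 arrays, centred on the probe set's median, by group (open symbols are replicate 1, filled symbols replicate 2, bars the mean of the 2 arrays, and the 3 symbol shapes for GADD45B its 3 probe sets). CDKN1A stands apart at stage 3 with 3.61 and 3.29, GADD45B and DDIT3 are highest in the centre, and the ES arrays of JUNB lie at -2.46 and 0.32.

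Set against all genes, the members were called more often in some comparisons than in others. The members were chosen with earlier results of these data known, so the shares of all genes are given for scale and test nothing. In the centre against the periphery, 3 of 4 members (CDKN1A, GADD45B and DDIT3) were higher, where 5.64% of all genes were called higher. It was 2 of 4 when IVDS2-C replicate 2 or IVDS2-P replicate 1 was left out. In the centre against ES cells the same 3 genes were called, against 13.7% of all genes. Their number was 2 without ES replicate 1 or IVDS2-C replicate 2, and 4 without ES replicate 2. At stage 3 against ES cells 3 of 4 (CDKN1A, DDIT3 and JUNB) were higher, against 21.1% of all genes, and the number was 1 without ES replicate 1 or IVDS3 replicate 1, 2 without IVDS3 replicate 2 and 4 without ES replicate 2. At stage 3 against IVDS2 3 of 4 (CDKN1A, GADD45B and JUNB) were higher, against 17.6%, and 2 of 4 when IVDS2 replicate 2 or either IVDS3 array was left out. The comparisons with ES cells share the 2 ES arrays.

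IVDS2 and the periphery showed no called member against ES cells. limma called 0 of 4 in IVDS2, where 12.7% of all genes were called in either direction, and 1 of 4 (GADD45B) had an unadjusted p under 0.05. It called 0 of 4 at the periphery, where 11% of all genes were called, and 2 of 4 (CDKN1A and GADD45B) had an unadjusted p under 0.05. GADD45B was called in both without ES replicate 1, and in the periphery also without either IVDS2-C array. Against IVDS2, the centre had 2 of 4 members higher (4.03% of all genes), CDKN1A by 1.82 ± 0.21 (adjusted p = 0.00452) and GADD45B by 2.85 ± 0.47 (adjusted p = 0.0142). DDIT3 (1.72 ± 0.43, adjusted p = 0.0511) and JUNB (2.29 ± 0.84, adjusted p = 0.148) were not called there. The GADD45B call was lost without IVDS2 replicate 2 (adjusted p = 0.112) or IVDS2-C replicate 2 (adjusted p = 0.0888), and 0 of 4 were called with only those 4 arrays in the fit (CDKN1A adjusted p = 0.0572, GADD45B 0.0793). DDIT3 was called without either ES array (adjusted p = 0.033) or IVDS2-C replicate 1 (adjusted p = 0.0311), and with arrays centred on their medians (adjusted p = 0.0493). Between the periphery and IVDS2 limma called 0 of 4, with 0 at an unadjusted p under 0.05, where 1.38% of all genes were called in either direction.

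CDKN1A was the 1 member called between stage 3 and the centre, higher at stage 3, where 10.9% of all genes were called higher. GADD45B and DDIT3 had differences of the other sign, -0.54 and -1.03, and were not called. Whether the genes differ from each other in this step was not tested. Against the periphery, stage 3 was higher in 3 of 4 members (17.9% of all genes), CDKN1A by 3.47 ± 0.21, GADD45B by 2.80 ± 0.47 and DDIT3 by 1.53 ± 0.43. The DDIT3 call was lost without IVDS2-P replicate 1 (adjusted p = 0.128), IVDS3 replicate 1 (adjusted p = 0.0858) or IVDS3 replicate 2 (adjusted p = 0.0642). JUNB had 2.28 ± 0.84 (adjusted p = 0.0573), and was called without either ES array (adjusted p = 0.0142) or with only those 4 arrays in the fit (adjusted p = 0.00488).

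**Figure D2:**
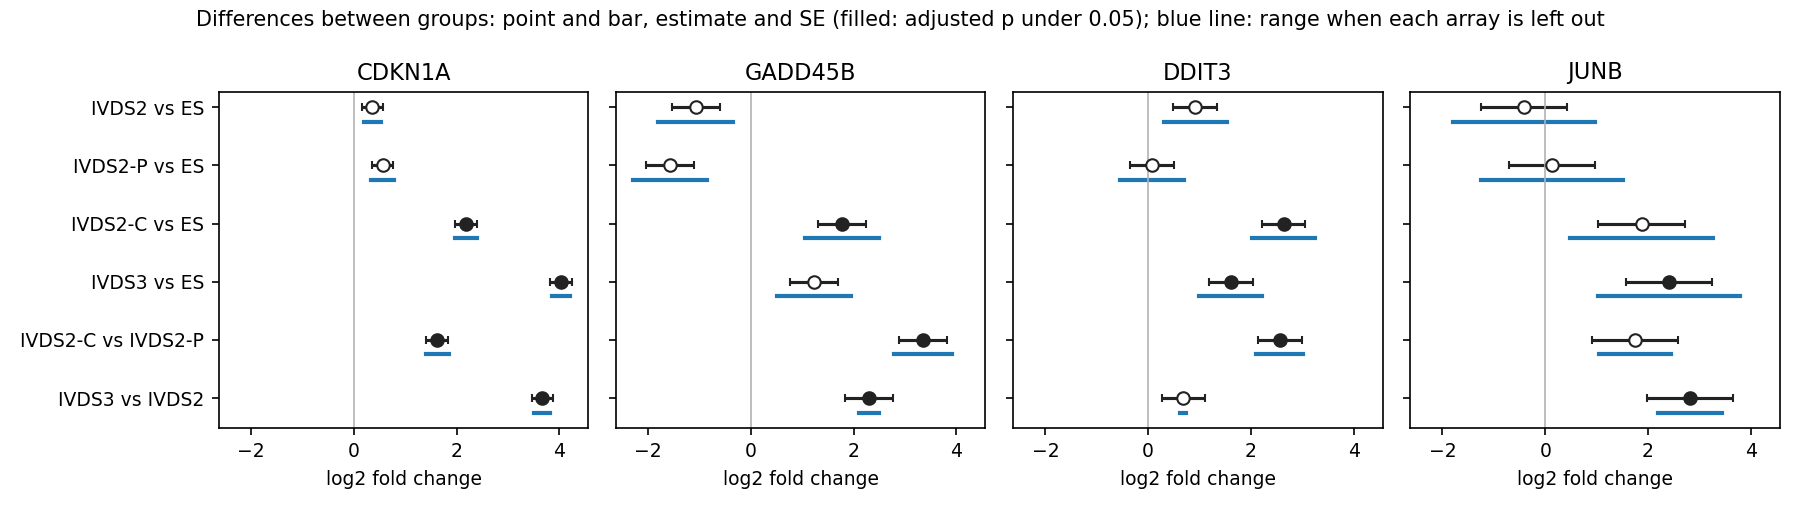
Log2 fold changes of the 4 genes in 6 comparisons, as the estimate (point) and its SE (bar), filled where the adjusted p was under 0.05, with a blue line for the range when each array is left out in turn. The blue lines of CDKN1A are short (3.86 to 4.20 for stage 3 against ES cells), and those of JUNB are long (1.02 to 3.80 for the same comparison).

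The 2 ES arrays stood further apart at 3 of these genes than at nearly all others. Between the 2 ES arrays, JUNB differed by 2.78, more than 99.93% of the 13191 genes, GADD45B by 1.46 (99.53%) and DDIT3 by 1.23 (99.21%), where the median gene differed by 0.22. CDKN1A differed by 0.35 (72.34%). At the periphery JUNB differed by 1.41 (99.85%), DDIT3 by 0.91 (99.23%), CDKN1A by -0.45 (93.74%) and GADD45B by 0.445 (93.46%). In the centre JUNB differed by 1.15 (99.19%), GADD45B by 1.11 (99.14%), DDIT3 by 0.85 (98.12%) and CDKN1A by 0.43 (90.55%). In IVDS2, JUNB differed by -1.24 (99.78%). On the IVDS3 arrays the differences of GADD45B, DDIT3 and JUNB were 0.12 to 0.15 in size, near the median gene of that group at 0.12, while CDKN1A differed by -0.31 (88.02%).

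Most of the other immediate early genes also differed between these arrays. All 19 measured genes of the immediate early list were higher on replicate 2 in ES cells. So were 16 of 19 at the periphery and 15 of 19 in the centre. In IVDS2 15 of 19 were lower, and in IVDS3 13 of 19. The share of all genes higher on replicate 2 was not counted. The median of all probe sets on replicates 1 and 2 was 0.0085 and 0.0496 in ES cells, and 0.0055 and -0.0042 at the periphery. It was -0.0089 and -0.0143 in the centre, 0.014 and 0.0164 in IVDS2, and -0.0209 and -0.044 in IVDS3. The list's median was higher on replicate 2 than on replicate 1 by 1.13 in ES cells, 0.73 at the periphery and 0.23 in the centre, and lower by 0.25 in IVDS2 and by 0.18 in IVDS3. The sign matched that of JUNB and of GADD45B in all 5 groups, and that of DDIT3 and of CDKN1A in 4 of 5. FOS, the partner of JUN proteins in AP-1, was -3.22 and 0.14 on the ES arrays and -4.40 and -0.14 on the peripheral arrays. The nuclear receptor NR4A1 was -2.11 and 2.00 on the ES arrays, and the phosphatase DUSP1 -1.34 and 0.46. NR4A1 and DUSP1 were chosen after their values were seen. Over the 10 arrays, the Pearson r with the list median was 0.92 for JUNB, 0.87 for GADD45B, 0.87 for DDIT3 and 0.60 for CDKN1A, from arrays that all these genes share. The part of this array-to-array movement in the group differences of the members was not tested.

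**Figure D3:**
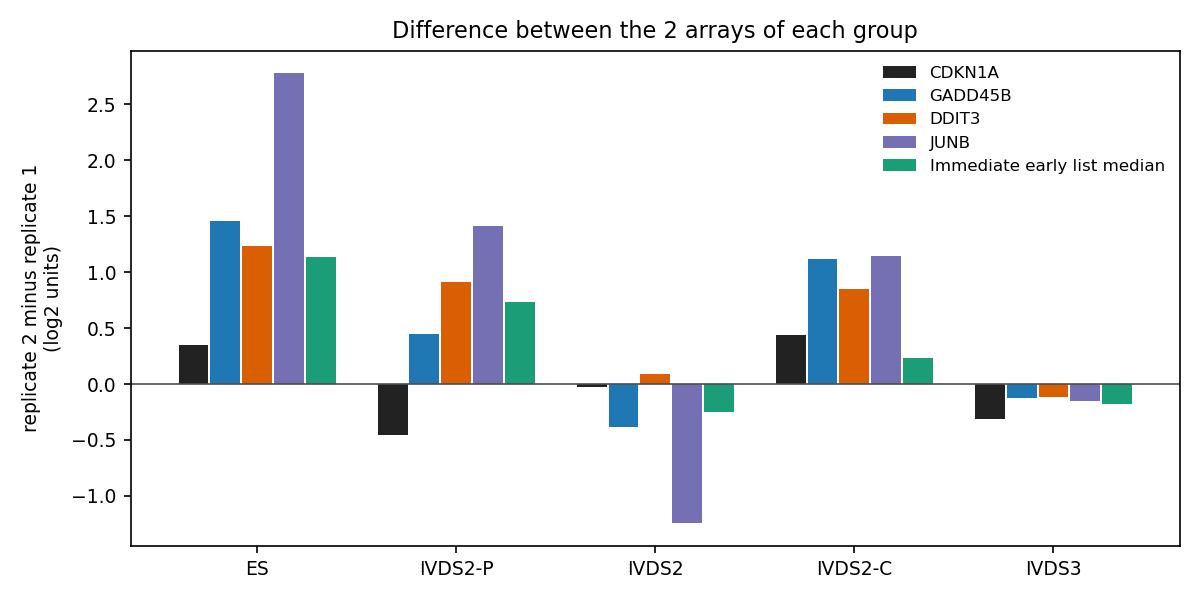
Replicate 2 minus replicate 1 in log2 units for each gene and for the median of 19 immediate early genes, in each of the 5 groups. In ES cells all bars point up, led by JUNB at 2.78, whereas the IVDS3 bars are all negative, the longest that of CDKN1A at -0.31.

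The genes most like each member were taken by Pearson correlation over the 10 arrays, leaving out genes with a locus number for a name. For CDKN1A they were ACTRT1 (r = 0.99), the phosphatase PTPN3 (0.99), the metalloproteinase TLL1 (0.99) and the matrix protein EFEMP1 (0.99), all highest at stage 3 and next in the centre. EFEMP1 was 4.61 and 4.71 on the IVDS3 arrays and 1.80 and 2.94 in the centre. For GADD45B they were RPL29, MGAT4B, the calcineurin inhibitor RCAN1 and the peptidase DPP4, with r of 0.95 to 0.96. Among these, RPL29 stayed within -0.12 and 0.38 on all arrays, a small range beside that of GADD45B.

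For DDIT3 they were the chaperone HSP90AA1 (r = 0.97), the transcription factor KLF6 (0.97), SRP68 of the signal recognition particle (0.97) and HERPUD1 (0.96), which acts in the degradation of ER proteins. HERPUD1 was 1.25 and 1.67 in the centre and -0.91 and -0.86 in ES cells, so that, as for DDIT3, both centre arrays were above all others. For JUNB they were SLC25A25 (r = 0.95), the early growth response factor KLF10 (0.94), TTC41 (0.94) and ARHGEF28 (0.93). SLC25A25 ran only from -0.27 to 0.33, TTC41 from -0.24 to 0.36 and ARHGEF28 from -0.20 to 0.32. These are small ranges beside that of JUNB, from -2.46 to 1.42. Between the members themselves r was 0.65 (CDKN1A and DDIT3) to 0.84 (GADD45B and JUNB). These correlations describe 10 arrays in 5 groups and carry no test.

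**Figure D4:**
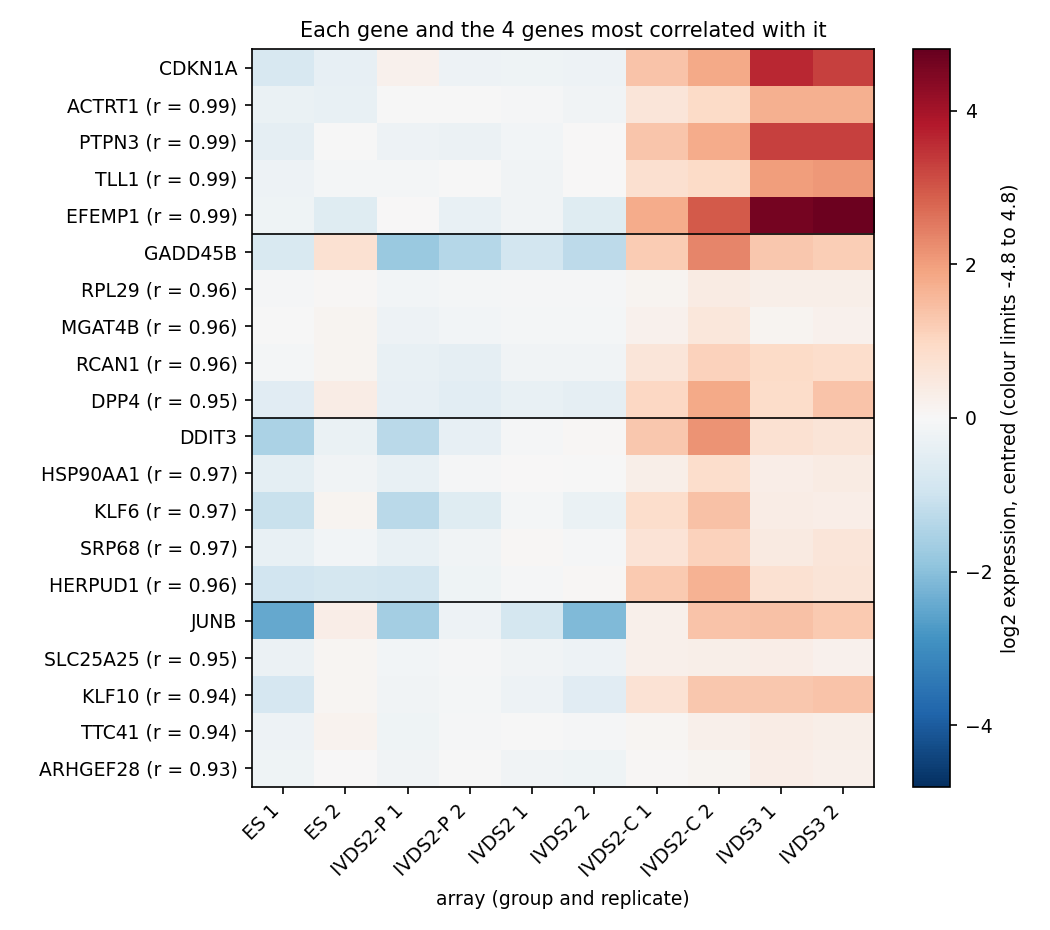
Log2 expression, centred per probe set, of each member (first line of each block) and of the 4 genes most correlated with it, on the 10 arrays ordered by group. The CDKN1A block is darkest on the 2 IVDS3 arrays, and the DDIT3 block on the IVDS2-C arrays, where HERPUD1 reached 1.25 and 1.67.

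The genes of the pathways around the members were counted from lists written with earlier results on these data known. Of 18 measured cyclins, CDKs and related cell cycle genes, 13 were lower at stage 3 than in ES cells and 2 higher (median -1.17, all genes -0.13). Of all genes, 21.1% were called higher and 28.6% lower. The part of p21 in these changes was not tested. CDC25C (-3.01 ± 0.29), a phosphatase that activates CDK1, and the mitotic cyclins CCNB1 (-2.92 ± 0.24) and CCNB2 (-2.69 ± 0.34) fell most, while CCND3, a D-type cyclin, rose by 2.95 ± 0.23. Leaving out any 1 array ended none of these 15 calls. Of the other CDK inhibitors and growth arrest genes, 8 of 18 were higher and 0 lower by limma (median 0.71), and these 8 were called with any 1 array left out. They included KLF4 (1.78 ± 0.27), GAS6 (1.50 ± 0.14), the MYC antagonist MXI1 (1.14 ± 0.24) and CCNG2 (1.02 ± 0.19). Without ES replicate 2, or with each gene taken by its most variable probe set, 1 gene of that list was lower. CDKN1B, the related inhibitor p27, had 0.07 ± 0.16 (adjusted p = 0.729).

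The known targets of p53 changed in both directions. Of 26 measured, 10 were higher at stage 3 than in ES cells and 7 lower (median 0.13), where 21.1% of all genes were higher and 28.6% lower, so the share lower was near that of all genes. SFN (4.54 ± 0.31) and PERP (3.60 ± 0.25), both also abundant in squamous epithelium and members of that marker list, and the stress cytokine GDF15 (3.04 ± 0.36) rose. The pro-apoptotic PMAIP1 fell by 1.36, and BAX (-1.19 ± 0.13) and CCNG1 (-1.16 ± 0.14), named after their values were seen, fell as well. MDM2, the ubiquitin ligase that p53 induces against itself, had 0.32 ± 0.14 (adjusted p = 0.0889). In the centre against the periphery, 5.64% of all genes were called higher and 3.95% lower. Of the p53 targets, 7 of 26 were higher there and 0 lower (median 0.21, all genes -0.03), again led by SFN (2.73 ± 0.31), PERP (2.36 ± 0.25) and GDF15 (2.24 ± 0.36). The number was 3 when IVDS2-C replicate 2 was left out, 2 for IVDS2-P replicate 1 and 4 for IVDS2-P replicate 2, and 3 with only those 4 arrays in the fit. The GDF15 call was lost without IVDS2-P replicate 1 (adjusted p = 0.0633).

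GADD45A and GADD45G, the other members of the GADD45 family, changed in opposite directions at stage 3. GADD45A was -0.97 and -0.94 in ES cells, below all other arrays, and it was higher by 1.21 ± 0.12 in the centre and 1.16 ± 0.12 at stage 3 against ES cells (adjusted p = 0.00025 and 7.99e-05). GADD45G fell by 0.67 at stage 3 (adjusted p = 0.0166), which was not called without ES replicate 1 or IVDS3 replicate 2 (adjusted p of at most 0.0993). In the list of the family and its MAP kinase partners, 2 of 10 were higher and 5 lower at stage 3 (median -0.35), beside 21.1% and 28.6% of all genes. The falls included MAPK8, which encodes JNK1 (-1.21 ± 0.21), GADD45GIP1 (-1.15 ± 0.12) and MAP3K4, a kinase that GADD45 proteins bind (-0.91 ± 0.17). Without IVDS3 replicate 1, 1 was higher. Among genes of the NF-kappaB response, 4 of 18 were higher and 4 lower at stage 3 (median -0.05), near the shares of all genes (21.1% and 28.6%), among them NFKB1 (1.66 ± 0.17), ICAM1 (1.17 ± 0.27), TNFAIP3 (1.01 ± 0.16) and SOD2 (-0.77 ± 0.15), and 2 were lower without IVDS3 replicate 1.

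In the centre against the periphery, 5.64% of all genes were called higher and 3.95% lower. GADD45B was highest in the centre, and the part of NF-kappaB or TGF-beta signals in its values was not tested. There, 4 of 18 genes of the NF-kappaB response were higher than at the periphery and 0 lower (median 0.28). They included the chemokine CXCL8 (3.35 ± 0.43), the cytokine IL6 (2.41 ± 0.18) and the feedback inhibitor TNFAIP3 (1.07 ± 0.16), and 2 were called with only those 4 arrays in the fit. Without IVDS2-C replicate 1, 1 of the list was lower. Of the TGF-beta and BMP response, 5 of 14 were higher in the centre and 0 lower (median 0.37), among them the matrix protein TGFBI (2.15 ± 0.32), the BMP pseudoreceptor BAMBI (2.11 ± 0.28) and the inhibitory SMAD7 (2.07 ± 0.33). The number was 3 without IVDS2-P replicate 1, where SMAD7 lost its call (adjusted p = 0.0605). At stage 3 against ES cells, 21.1% of all genes were called higher and 28.6% lower. Of this list 4 of 14 were higher and 4 lower (median -0.17), with TGFBI (7.41 ± 0.32) and SMAD7 (1.24 ± 0.33) up and ID1 (-1.43 ± 0.32) and TGIF1 (-1.19 ± 0.18) down. It was 2 higher without either ES array or either IVDS3 array, and SMAD7 lost its call without ES replicate 1 or IVDS3 replicate 2 (adjusted p of at most 0.0801).

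Around DDIT3, genes of ER stress rose in part, and some fell. Of all genes, 21.1% were called higher at stage 3 than in ES cells and 28.6% lower. In the integrated stress response list, 6 of 18 were higher and 1 lower at stage 3 against ES cells (median 0.29), and 3 were higher without ES replicate 1 or IVDS3 replicate 1. The rises included EIF2AK3 (1.59 ± 0.25), which encodes the ER stress kinase PERK, CEBPB (1.28 ± 0.25), a dimer partner of CHOP, and TRIB3 (0.98 ± 0.33), a CHOP target. The TRIB3 call was lost without ES replicate 1 or either IVDS3 array (adjusted p of at most 0.185). PHGDH, of serine synthesis, fell by 1.02, and 2 genes were lower with each gene taken by its most variable probe set. ATF4, the factor upstream of DDIT3, had 0.02 ± 0.13 in the centre and -0.11 ± 0.13 at stage 3 against ES cells, neither called.

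In the list of the unfolded protein response of the ER, 6 of 15 were higher and 4 lower at stage 3 against ES cells (median 0.40), and 2 were lower without ES replicate 2 or IVDS3 replicate 1. Of all genes, 21.1% were called higher and 28.6% lower, so the lower share was near that of all genes. HERPUD1 (1.57 ± 0.21), the sensor ATF6 (1.11 ± 0.11), the oxidase ERO1A (0.91 ± 0.10) and the transcription factor XBP1 (0.87 ± 0.20) rose. Genes with lower values at stage 3, named after these were seen, included ERN1, PDIA4 and CREB3. On the ES arrays ERN1 was 0.18 and 0.55, PDIA4 0.15 and 0.13, and CREB3 0.49 and 0.60. At stage 3 they were -0.24 and -0.20, -0.64 and -0.52, and -0.30 and -0.09. HERPUD1 was also higher in the centre than at the periphery (2.00 ± 0.21, adjusted p = 0.00116), with any 1 array left out too. In the heat shock list 4 of 11 were higher and 3 lower at stage 3 (median -0.16), beside 21.1% and 28.6% of all genes. The small chaperone HSPB8 (1.72 ± 0.20), its partner BAG3 (1.60 ± 0.20) and DNAJB1 (1.46 ± 0.30) rose, and HSPA4 fell by 0.93.

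The other subunits of AP-1 gave few calls at stage 3, where 21.1% of all genes were called higher than in ES cells and 28.6% lower. At stage 3 against ES cells, 1 of 11 was higher, the repressor JDP2 (1.69 ± 0.34), and 1 lower, BATF3 (-0.29 ± 0.11, adjusted p = 0.0472), a call lost whichever array was left out (adjusted p of 0.0526 to 0.216). Without ES replicate 2, 4 of 11 were higher, without either IVDS2-C array 2, and without ES replicate 1, 3 were lower. FOS had 2.05 ± 1.35 (adjusted p = 0.235), JUND 0.26 ± 0.17 (adjusted p = 0.229) and ATF3 0.66 ± 0.31 (adjusted p = 0.104). Of the 19 immediate early genes, 4 were higher and 2 lower (median 0.44), the higher share near the 21.1% of all genes, with ZFP36 (2.26 ± 0.22), a protein that destabilises transcripts, KLF4 (1.78 ± 0.27) and KLF10 (1.70 ± 0.28) up and MYC (-1.94 ± 0.64) down. Without ES replicate 2, 13 of 19 were higher and 0 lower, and without ES replicate 1, 4 were lower. Without IVDS3 replicate 1, 1 was lower, and without IVDS3 replicate 2, 0. MYC lost its call without ES replicate 2 or either IVDS3 array (adjusted p of at most 0.137).

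Between centre and periphery, most calls in these lists were lost when 1 array or another was left out. Where that leaves a group with 1 array, the SE widens, so a lost call need not mean that it rested on that array. Some counts also moved without arrays of the other groups. Of all genes, 5.64% were called higher in the centre and 3.95% lower, and these shares apply to each list below. Of the CDK inhibitors and growth arrest genes 3 of 18 were higher (KLF6 by 2.08 ± 0.37, BTG2 by 1.89 ± 0.48 and BTG3 by 0.73 ± 0.11), and BTG3 alone stayed called with any 1 array left out. The count was 1 when IVDS2-C replicate 2 or IVDS2-P replicate 1 was left out. Of the cyclins, CDKs and related genes 2 of 18 were lower, PCNA (-0.85 ± 0.20) and CDC25A (-0.66 ± 0.17), and neither call held whichever array was left out. GADD45A (0.63 ± 0.12) and GADD45G (0.74 ± 0.19) were the 2 of 10 higher in their list. It was 0 when IVDS2-C replicate 2 or IVDS2-P replicate 1 was left out, and 1 for either IVDS2 array, either IVDS3 array or IVDS2-C replicate 1, where 3 were lower.

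In the integrated stress response list 3 of 18 were higher in the centre (CEBPB by 1.28 ± 0.25, SLC7A11 by 1.13 ± 0.25 and SESN3 by 0.88 ± 0.22), with 0 when IVDS2-C replicate 2 was left out and 1 when IVDS2-P replicate 1 was. In the unfolded protein response list 2 of 15 were higher, HERPUD1 and XBP1 (0.76 ± 0.20, adjusted p = 0.0495), a call that held only without IVDS2-C replicate 1, where 4 were higher, or without either ES array. Of the AP-1 subunits 3 of 11 were higher, JDP2 (1.75 ± 0.34), FOSL2 (1.10 ± 0.26) and JUND (0.65 ± 0.17), with 0 when IVDS2-C replicate 2 or IVDS2-P replicate 1 was left out, 1 for IVDS2-P replicate 2 or either IVDS3 array, and 5 for either ES array. Of the immediate early genes 3 of 19 were higher (KLF6, BTG2 and KLF10), also 0 without IVDS2-C replicate 2 or IVDS2-P replicate 1, 1 without IVDS2-P replicate 2, either IVDS2 array or either IVDS3 array, and 9 without either ES array. HSPB8 (1.39 ± 0.20) was the heat shock gene that stayed called with any 1 array left out, among 3 of 11 higher, and without either ES array 2 of that list were lower.

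Marker lists gave the setting of these values. The median of 11 pluripotency markers was 1.72 and 1.91 on the ES arrays, 0.98 and 0.61 at the periphery, 0.14 and -0.32 in IVDS2, -0.22 and -0.90 in the centre, and -2.25 and -1.83 at stage 3. At stage 3, 9 of 11 were lower than in ES cells and 1 higher, with POU5F1 (-7.60 ± 0.79), DPPA4 (-5.93 ± 0.53), DNMT3B (-5.25 ± 0.37) and SALL4 (-4.73 ± 0.36) among the falls. The marker that was higher, named after its values were seen, was NANOG. It was -0.70 and -1.37 on the ES arrays and 0.47 and 0.41 at stage 3. All 13 squamous epithelial markers were higher (median 4.09), led by KRT4 (8.56 ± 0.20), CLDN8 (7.56 ± 0.39), S100A9 (7.50 ± 0.22) and S100A8 (6.40 ± 0.22). Of 14 hepatocyte markers 3 were higher and 4 lower (median -0.11), near the shares of all genes (21.1% and 28.6%), with CYP3A4 (3.76 ± 0.16) and FOXA1 (2.39 ± 0.23) up and FOXA3 (-3.16 ± 0.27) down. The fall of APOA1 (-1.84 ± 0.55) lost its call without ES replicate 1 or IVDS3 replicate 1, where 2 of the list were lower. Of 13 fibroblast markers 7 were higher and 2 lower (1 lower without any 1 array of the 2 groups), with LUM (5.48 ± 0.21), DCN (4.57 ± 0.16), COL1A2 (2.91 ± 0.16) and FAP (2.12 ± 0.22) up. Between centre and periphery 7 of 11 pluripotency markers were lower in the centre (1 without IVDS2-P replicate 1, 3 without IVDS2-P replicate 2 or IVDS2-C replicate 2, and 4 without either IVDS3 array), 5 of 13 squamous markers higher (3 without IVDS2-P replicate 1) and 3 of 13 fibroblast markers higher and 2 lower (1 lower without either IVDS2-C array or IVDS2-P replicate 1). Of the hepatocyte markers 1 of 14 was higher (0 without IVDS2-C replicate 2 or either peripheral array) and 1 lower (0 without either peripheral array). The median of the fibroblast markers was -0.21 to 0.16 on the arrays of ES cells and of stage 2, and 0.64 and 0.44 at stage 3. Those lower at stage 3, named after their values were seen, were THY1 and COL1A1. THY1 was 1.17 and 1.26 on the ES arrays and -0.02 and -0.18 at stage 3. COL1A1 was 0.69 and 0.52, then 0.02 and -0.29. In the centre against the periphery, where 5.64% of all genes were called higher and 3.95% lower, TWIST1 (-2.91 ± 0.35) changed most among them. LUM (2.36 ± 0.21) and COL1A2 (2.05 ± 0.16) were higher there. Centred values have no true zero, so no marker can be called absent. In IVDS2 against ES cells, 6 of 11 pluripotency markers were lower and 1 higher (median -2.04, all genes -0.04). Of the 13191 genes, 822 were called lower there and 858 higher. The part of these lists in the rise of CDKN1A was not tested.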

How the data were processed

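Expression was measured on 10 Affymetrix rhesus macaque arrays. The deposited log2 values were made by the authors with RMA (version not given), per the submitters' processing notes. The log base was inferred from the range of the values. The values are centred: every probe set has a median of 0 over the arrays (largest 5e-07 in size), so signal over background is unknown and dim probe sets could not be filtered. The 84 control probe sets were left out. Probe sets with 1 annotated gene (22802, against 316 with several and 21092 with none) were averaged per gene, and 22520 of 23131 annotation entries matched RefSeq by gene number.

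All 5 groups were fitted with lmFit and eBayes of limma 3.58.1, under R 4.3.3, with 5 residual degrees of freedom and no covariate. The fit was tested on simulated data. All 10 pairs of groups were compared. No sequence was used here, and the planned promoter motif search was not run. The members and the 15 lists (287 genes, 219 measured) were chosen with earlier results of these data known. Named from a list were up to 4 called genes with the largest change at stage 3 against ES cells and up to 3 in the centre against the periphery, as far as that list is described for it, plus GADD45A, GADD45G, JUN, JUND, FOS, ATF3, ATF4, MDM2 and CDKN1B. JUN was not analysed here. Alternatives were array centring, only the groups compared, the replicate number as a block, each array left out, the most variable probe set, and the test over probe sets. The 2 arrays per group limit the precision.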

Additional observations from a re-analysis of the deposited data

How the results depend on the processing

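No called difference of a member changed sign under any alternative run. The calls of CDKN1A held under all of them, except in the centre against IVDS2 with only those 2 groups. The labels do not say that same-numbered samples share a culture or day. The correlation of their deviations from the group means ran from -0.12 to 0.25 and did not pass 0.1 in every pair, so the numbers were not taken to pair the samples, and a shared source was not tested further. With the replicate block, GADD45B was called at the periphery against ES cells (-1.57, adjusted p = 0.0459) and at stage 3 against ES cells (1.23, adjusted p = 0.0368), and so were DDIT3 at stage 3 against the centre (-1.03, adjusted p = 0.0468) and in the centre against IVDS2 (1.72, adjusted p = 0.0251), and JUNB at stage 3 against the periphery (2.28). It changed no other call of a member, and the cyclins, CDKs and related genes lower in the centre than at the periphery numbered 5 rather than 2. GADD45B at stage 3 against ES cells was also called with arrays centred (1.29) and for its most variable or highest probe set (1.54). With only the 2 groups compared, GADD45B in the centre against ES cells (1.77) lost its call, DDIT3 at stage 3 against IVDS2 (0.69) gained one, and the list genes called between centre and periphery fell from 50 to 24. Leaving out each array, GADD45B ranged from -1.80 to -0.35 in IVDS2, -2.30 to -0.85 at the periphery, 1.05 to 2.50 in the centre and 0.50 to 1.96 at stage 3 against ES cells. DDIT3 ranged from 0.99 to 2.22 at stage 3 against ES cells and from 2.11 to 3.02 between centre and periphery. JUNB ranged from 0.49 to 3.26 in the centre and 1.02 to 3.80 at stage 3 against ES cells, and from 2.20 to 3.44 at stage 3 against IVDS2. List genes called numbered 19 to 43 (34 with all arrays) in IVDS2, 11 to 44 (27) at the periphery and 53 to 89 (91) in the centre against ES cells, and 17 to 64 (50) between centre and periphery. The causes were not tested.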
